A study of Homo sapiens with 4 samples.

Results

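The 9 genes described here encode the prohibitin ring of the mitochondrial inner membrane (PHB1, formerly PHB, and PHB2) and the related scaffold STOML2. They also encode the inner membrane proteases YME1L1, AFG3L2, SPG7, OMA1 and PARL, and the fusion protein OPA1, which OMA1 and YME1L1 cut. They were taken by name from the 61541 gene IDs of a table of RNA-seq counts, and all 9 were among the 16863 genes that passed a filter on low counts. RNA came from MHCC97H, an established human hepatocellular carcinoma (HCC) cell line, in 4 libraries. The shCon group held 2 libraries of cells with a control shRNA, labelled as controls, and the shUBXN1 group held 2 libraries of cells with an shRNA against UBXN1, labelled as UBXN1 knockdown. UBXN1 is a UBX-domain cofactor of the ubiquitin-dependent segregase VCP, and the study asked how its loss affects the mitochondria of HCC cells, including through its binding to prohibitin. The deposited design speaks of transfection, whereas the methods describe the pLKO.1 shRNA vector and name shRFP as the control, and no source used here says which UBXN1 shRNA the sequenced cells carried, how long they carried it, or whether the replicates were separate cultures. The p-values below therefore measure the spread between these libraries, which may be technical.

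Prohibitins belong to the SPFH family of membrane proteins. PHB1 and PHB2 alternate in a ring that holds the m-AAA protease, organises cardiolipin and cristae, and keeps OPA1 from excessive cleavage, and PHB2 also binds LC3 during mitophagy. The m-AAA protease, built from AFG3L2 alone or from AFG3L2 with SPG7 (paraplegin), faces the matrix. The i-AAA protease YME1L1 faces the intermembrane space and, bound by STOML2 together with the rhomboid protease PARL, forms a further proteolytic hub. OMA1, a metallopeptidase activated when the membrane potential falls, and YME1L1 both cut OPA1, a dynamin-like GTPase of inner membrane fusion. All of this is regulated largely at the level of protein stability and cleavage, which counts of mRNA do not measure.

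The listed shRNA targets and the stretches before the prohibitin genes are given here as sequences. The 3 human UBXN1 shRNA targets listed with the study are shown because each could in principle also act on the 9 genes. Capitals mark bases 14 to 20 of the target, which pair with the seed (bases 2 to 8) of the guide strand.
shUBXN1-1: cccgatgtggacgAGCCTTTa
shUBXN1-2: aggagttagcagcCAGACAAa
shUBXN1-3: gcactgacatctcCTTCCTAa

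Each target matched UBXN1 transcripts over all 21 bases, while the longest uninterrupted match to any annotated transcript of the 9 genes was 9, 9 and 11 bases for the 3 targets in turn. The best full-length alignment to those transcripts held 7, 7 and 6 mismatches. The seed site alone is common: it was present in 27.4%, 24.1% and 20.5% of 19701 canonical coding transcripts. Among the 9 genes, YME1L1 and OPA1 held the site of shUBXN1-1, OPA1 held that of shUBXN1-2, and PHB2, OMA1 and OPA1 held that of shUBXN1-3. Whether any of these sites took part in the changes below was not tested.

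The 250 bases before the RefSeq start of PHB1 and of PHB2 (GRCh38.p14) are shown because the mRNAs of the ring partners moved in opposite directions. The PHB1 stretch lies at chr17:49414883-49415132 and the PHB2 stretch at chr12:6970665-6970914, both read from the minus strand, 5′ to 3′. Capitals mark matches, on either strand, to a CCAAT box (CCAAT), a GC box (GGGCGG) or an ETS site (CCGGAAG).
PHB1: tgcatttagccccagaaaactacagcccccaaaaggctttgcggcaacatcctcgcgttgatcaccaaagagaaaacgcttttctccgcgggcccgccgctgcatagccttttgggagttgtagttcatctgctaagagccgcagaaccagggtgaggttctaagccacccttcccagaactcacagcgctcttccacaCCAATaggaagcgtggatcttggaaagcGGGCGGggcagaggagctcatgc
PHB2: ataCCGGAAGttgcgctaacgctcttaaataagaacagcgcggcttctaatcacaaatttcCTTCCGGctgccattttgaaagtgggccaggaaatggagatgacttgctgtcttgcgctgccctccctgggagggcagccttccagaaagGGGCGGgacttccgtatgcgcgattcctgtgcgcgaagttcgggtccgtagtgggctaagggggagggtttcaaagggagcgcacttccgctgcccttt

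PHB1 held a CCAAT box that began 51 bases before the start and a GC box at 23 bases. PHB2 held no CCAAT box, but ETS sites at 247 and 189 bases and a GC box at 99 bases. The GENCODE positions used further below start these genes elsewhere, at 49414905 for PHB1 and 6970780 for PHB2. Both starts lie inside the stretches shown, and by them both GC boxes fall within the annotated genes. Over 27305 RefSeq promoters of the same length, a CCAAT box was present in 33.0%, a GC box in 42.3% and an ETS site in 8.82%. Promoters of 8 of the 9 genes were in the table (all but YME1L1). An ETS site was found in PHB2, STOML2 and PARL, a CCAAT box in PHB1 and STOML2, and a GC box in PHB1, PHB2, AFG3L2, SPG7, OMA1 and OPA1. A core NRF1 site was found in OPA1, and its share of all promoters was 1.13%. Searches for an E-box (CACGTG), a CRE (TGACGTCA) and an ATF4 site (TGATGCAA) found none in the 8 promoters, and 6.49%, 1.77% and 0.82% of all promoters held them in turn. Among all 11676 tested genes with a promoter, 28.1% were called higher and 31.8% lower in shUBXN1, against 23.1% and 36.4% of the 1774 with an ETS site 25.9% and 33.9% of the 4023 with a CCAAT box, and 29.4% and 32.2% of the 7585 with a GC box. A match to these letters is a description of the sequence and not a measured binding site.

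The libraries held 23373700 to 27380508 expected counts, which are estimates and need not be whole. UBXN1 itself, the check of the labels, was counted 1788 and 1817 times in the shCon libraries and 416 and 433 times in the shUBXN1 libraries, which left 24.5% of the control level. Levels between libraries are given as CPM (counts scaled to a common library size) after TMM scaling, and levels between genes as TPM, which also divides by gene length. A gene was called at a Benjamini-Hochberg adjusted p under 0.05 over all 16863 genes in edgeR's quasi-likelihood test. The share of counts on the mitochondrial genome was 5.28% and 5.59% in shCon and 7.43% and 8.27% in shUBXN1, and its part in the results below was not tested. Of 11 hepatocyte markers, 7 were lower in shUBXN1 and 2 higher. Their summed level was 4470 and 4626 CPM in shCon and 3473 and 4062 CPM in shUBXN1. Most of that sum was keratin 8 (KRT8), at 3354 and 3467 CPM in the shCon libraries. ALB (albumin) was at 17.6 CPM in shCon and 4.49 CPM in shUBXN1, FGB at 9.84 and 0.596 CPM, and TF at 97.6 and 25.0 CPM. Of the 2 higher, SERPINA1 was at 8.62 CPM in shCon and 11.35 CPM in shUBXN1. Keratin 18 (KRT18) was at 922 and 1146 CPM in turn. Of 10 markers of other cell types, 6 were tested, of which 3 were higher and 2 lower, with a median log2 fold change of 0.27. For both sets of markers, the shares over all genes tested were 28.0% higher and 28.2% lower. The biliary keratin KRT7 rose from 42.7 to 94.7 CPM, the endothelial PECAM1 from 33.3 to 42.5 CPM and the fibroblast collagen COL1A1 from 0.273 to 2.43 CPM (log2 fold change 3.11, edgeR adjusted p = 5.83e-05). The biliary keratin KRT19 fell from 293 to 124 CPM and the macrophage marker CD68 from 85.4 to 71.7 CPM. PTPRC, CD14, CDH5, COL1A2 and PDGFRB were at most 0.808 CPM in any library. All 10 together summed to 454 and 457 CPM in shCon and 330 and 343 CPM in shUBXN1, and the part of these markers in the results was not tested. In bulk RNA, fewer cells that express a gene and less RNA per cell cannot be told apart.

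Among the 9 genes, 3 (33.3%) were called higher with UBXN1 knockdown and 4 (44.4%) lower. Over all genes tested, 28.0% were called higher and 28.2% lower, and among the 9510 genes at least as abundant as OMA1, the scarcest of the 9, the shares were 27.8% and 39.1%. Calls were common in this comparison, and nothing about the 9 genes as a set is read from their number. Where a lack of overlap between the groups is given below, it describes 2 libraries against 2. Its share over all genes was not counted, and nothing more is read from it. PHB1 and both m-AAA subunits, AFG3L2 and SPG7, rose. PHB2, STOML2, OMA1 and OPA1 fell, whereas YME1L1 and PARL did not pass. No member reached a fold change of 2 with an unadjusted p under 0.05, which 11.8% of all genes did in the higher and 6.09% in the lower direction. The median log2 fold change was -0.18 for the 9 genes, 0.016 for all genes tested and -0.077 for the 9510 genes at least as abundant as OMA1.

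**Figure D1:**
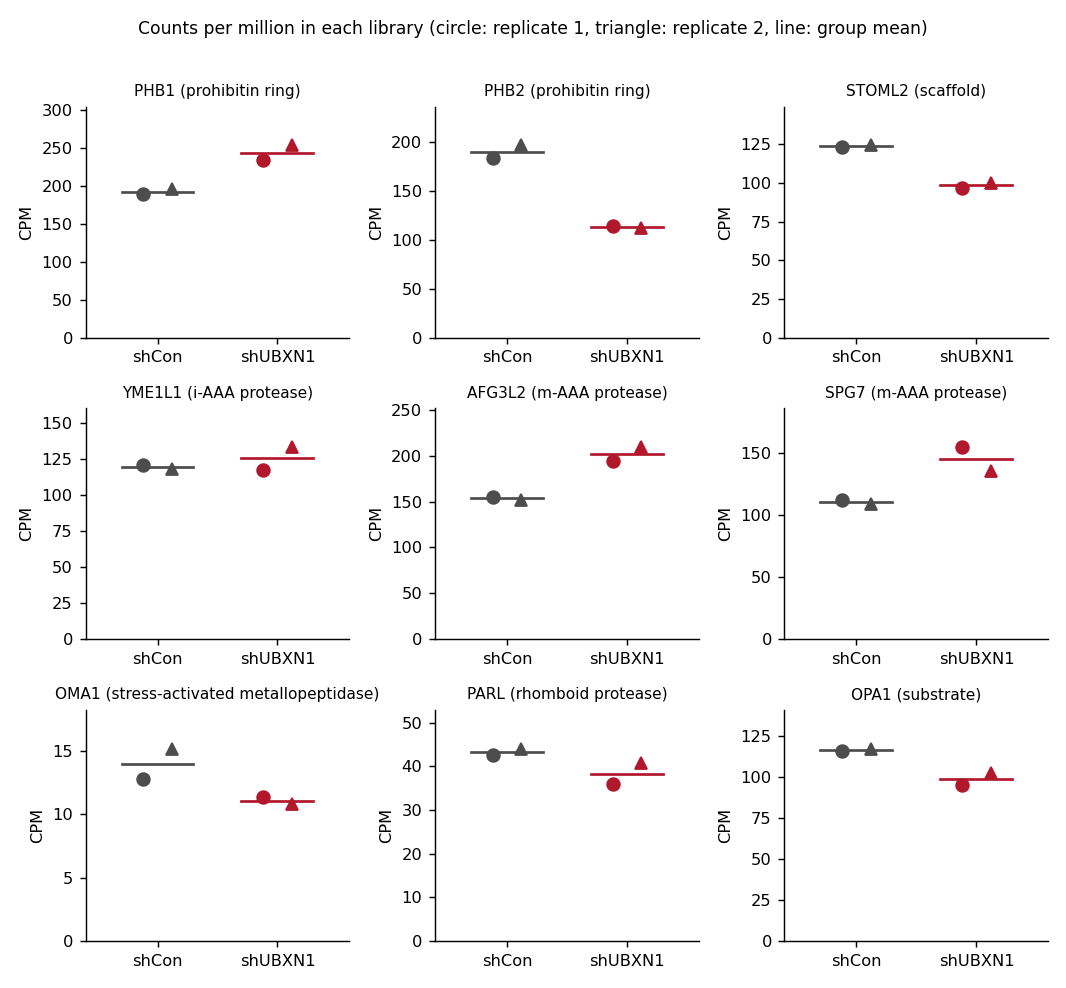
CPM (counts scaled by TMM to a common library size, linear axis from 0) of each of the 9 genes in the 4 libraries, with shCon in grey, shUBXN1 in red and a line at the group mean. The groups lie farthest apart for PHB2 (184 and 197 against 114 and 112 CPM) and overlap for YME1L1.

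PHB1 had 190 and 196 CPM in the shCon libraries and 234 and 254 CPM in the shUBXN1 libraries. Both knockdown libraries were above both controls, with means of 193 ± 4.09 and 244 ± 14.0 CPM (SD, n = 2 each). The log2 fold change was 0.34 (standard error 0.0752, 95% interval 0.178 to 0.501, edgeR adjusted p = 0.00149), a rise of 26.5%. The call for PHB1 was lost without shCon replicate 2 (0.35, edgeR adjusted p = 0.0610) and after each library's trend on GC content was removed (0.19, edgeR adjusted p = 0.0721). PHB1 (ENSG00000167085) lies on the minus strand of chromosome 17 from 49404049 to 49414905 of GRCh38, with 7 exons in the canonical transcript. An antisense lncRNA gene, ENSG00000250186, covers 18.8% of its exon bases but had at most 0.95 counts in a library. PHB1 has many processed pseudogenes, and the 20 examined together had 9 and 11 counts in shCon and 18 and 16 in shUBXN1, at most 0.311% of the PHB1 counts.

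PHB2 moved the other way and further than any other of the 9 genes. It had 184 and 197 CPM in shCon and 114 and 112 CPM in shUBXN1, with no overlap between the groups (means 190 ± 9.40 and 113 ± 1.34 CPM, SD, n = 2 each). Its log2 fold change was -0.75 (standard error 0.0739, 95% interval -0.906 to -0.589, edgeR adjusted p = 1.03e-06), which left 59.6% of the control level. In absolute size this change was above that of 70.9% of all genes tested. For PHB1, STOML2, AFG3L2, SPG7, OMA1 and OPA1 that share was 40.1%, 39.0%, 45.6%, 45.7%, 39.7% and 29.3% in turn. The PHB2 call held in all 15 alternatives, where the value ran from -0.93 to -0.66. PHB2 (ENSG00000215021) lies on the minus strand of chromosome 12 from 6965327 to 6970780, with 10 exons in the canonical transcript. The small RNA gene SCARNA12 lies within it and had 1.03 and 10.1 counts in shCon and 0 in both shUBXN1 libraries. PHB2P1, a PHB2 pseudogene, had 0 counts in all 4 libraries. By quantitative PCR, the paper reports little effect of the knockdown on PHB and PHB2 mRNA in MHCC97H and a further HCC line. It also reports less PHB protein, but not less PHB2 protein, in knockdown cells. Why the counts given here differ from those PCR results was not tested.

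Because the ring contains both subunits, their ratio within each library was also taken, which does not depend on library scaling. By TPM, PHB1 stood at 0.777 and 0.747 times PHB2 in the shCon libraries and at 1.54 and 1.70 times in the shUBXN1 libraries. By TPM, the order of the subunits was thus inverted in both knockdown libraries. The order in shCon rests on the deposited gene lengths, whereas the shift in the ratio does not. Without division by length, PHB1 had 190 and 196 CPM and PHB2 184 and 197 CPM in the shCon libraries. The mean ratio was 2.12-fold higher in shUBXN1 (log2 difference 1.09, with a pooled SD of 0.0760 between replicates, n = 2 per group). With 2 libraries against 2, an exact two-sided permutation test cannot go below p = 0.333, which was the value obtained. Leaving out 1 library at a time gave log2 differences of 1.02 to 1.16. The sum of both mRNAs differed less between the groups than either alone, with 482 and 493 TPM in shCon and 456 and 443 TPM in shUBXN1.

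**Figure D2:**
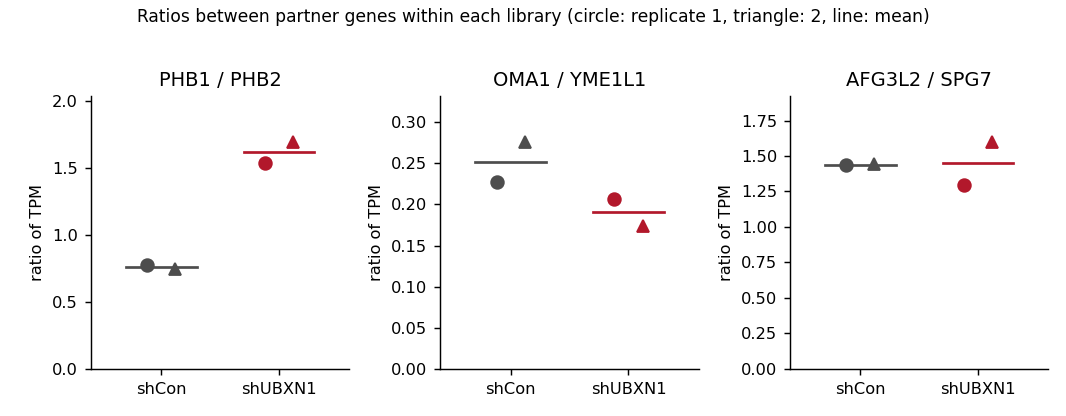
Ratios of TPM between partner genes within each library (linear axes from 0), with a line at the group mean and each marker 1 library. PHB1 to PHB2 went from a mean of 0.762 to 1.62, OMA1 to YME1L1 from 0.252 to 0.190, and AFG3L2 to SPG7 had means of 1.44 and 1.45.

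STOML2, the SPFH scaffold that binds cardiolipin and gathers YME1L1 and PARL, fell. It had 3286 and 2924 counts in shCon and 2402 and 2341 in shUBXN1, or 124 ± 0.860 and 98.5 ± 2.08 CPM (SD, n = 2 each), and the groups did not overlap in CPM. On the log2 scale the fold change was -0.33 (standard error 0.0713, edgeR adjusted p = 0.00122), and the call held in all 15 alternatives with values from -0.48 to -0.25. STOML2 (ENSG00000165283) lies on the minus strand of chromosome 9 from 35099776 to 35103195. No annotated gene shares its exon bases and all 4 of its counts were whole numbers.

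AFG3L2, the catalytic subunit that can form an m-AAA protease by itself, rose from 155 and 152 CPM in shCon to 194 and 210 CPM in shUBXN1. The groups did not overlap, with means of 154 ± 2.49 and 202 ± 10.8 CPM (SD, n = 2 each). Its log2 fold change was 0.40 (standard error 0.0743, edgeR adjusted p = 4.12e-04), and the call held in all 15 alternatives with values from 0.32 to 0.48. AFG3L2 (ENSG00000141385) lies on the minus strand of chromosome 18 from 12328944 to 12377227. TUBB6 on the opposite strand covers 11.7% of its exon bases. The counts of AFG3L2 and TUBB6 were fractional in all 4 libraries but their sum was a whole number in each within 0.005 counts. TUBB6 held 1.27% to 1.63% of that sum. AFG3L1P, a related pseudogene, moved the other way (31.5 and 35.5 CPM in shCon, 24.8 and 20.7 CPM in shUBXN1, log2 fold change -0.56, edgeR adjusted p = 4.92e-04), and AFG3L2P1 had 0 counts in all 4 libraries.

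SPG7, whose product paraplegin joins AFG3L2 in the mixed m-AAA complex and whose loss causes a hereditary spastic paraplegia, also rose. It had 112 and 109 CPM in shCon and 155 and 135 CPM in shUBXN1, so the knockdown libraries were further apart than the controls but both above them. The means were 110 ± 2.33 and 145 ± 13.9 CPM (SD, n = 2 each), and the log2 fold change was 0.40 (standard error 0.0803, edgeR adjusted p = 7.45e-04). The call was lost when the GC trend was removed, at 0.18 (edgeR adjusted p = 0.0891). SPG7 (ENSG00000197912) lies on the plus strand of chromosome 16 from 89490719 to 89557766. Its counts were fractional (2983.67 and 2552.08 in shCon, 3836.24 and 3168.91 in shUBXN1), although no annotated gene shares its exon bases. The ratio of AFG3L2 to SPG7 by TPM was 1.435 and 1.444 in shCon and 1.295 and 1.6 in shUBXN1, a difference in mean log2 ratio of 5.00e-04 against a pooled SD of 0.153. Both subunits together went from 170 and 161 TPM to 236 and 217 TPM.

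YME1L1, the i-AAA protease, gave 121 and 118 CPM in shCon and 118 and 134 CPM in shUBXN1, and the groups overlapped (means 120 ± 2.15 and 126 ± 11.2 CPM, SD, n = 2 each). The log2 fold change was 0.071 (standard error 0.0788, 95% interval -0.098 to 0.240, edgeR adjusted p = 0.466). The sign turned without shUBXN1 replicate 2 (-0.037), and YME1L1 was called higher without shUBXN1 replicate 1 (0.16, edgeR adjusted p = 0.0456). YME1L1 (ENSG00000136758) lies on the minus strand of chromosome 10 from 27110111 to 27155266, and MASTL on the other strand covers 6.04% of its exon bases. The counts of both were fractional in all 4 libraries, and their sum was not a whole number in 3 of them. MASTL held 21.2% to 23.5% of that sum.

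OMA1, the stress-activated protease, was the scarcest of the 9 and the least certain of the 4 that fell. Expected counts of 342 and 357 in the shCon libraries stood against 281 and 253 in the shUBXN1 libraries, or 12.8 and 15.2 CPM against 11.4 and 10.8 CPM. The groups did not overlap, and the log2 fold change was -0.34 (standard error 0.132, edgeR adjusted p = 0.0429). The direction held in all 15 alternatives but the call was lost in 9 of them, including DESeq2 (adjusted p = 0.144) and the edgeR fits without shCon replicate 2 (-0.23) and without shUBXN1 replicate 2 (-0.32). DAB1, whose annotated transcripts overlap it on the same strand and share 6.91% of its exon bases, had fractional counts that summed with those of OMA1 to a whole number in every library. DAB1 held 36.9% and 24.5% of that sum in shCon and 25.4% and 23.01% in shUBXN1. With the counts of both genes summed, an alternative chosen after seeing the data, the libraries had totals of 542 and 473 (shCon) and of 376 and 329 (shUBXN1). The log2 fold change was then -0.47 (standard error 0.109, edgeR adjusted p = 0.00220). How many of the divided reads belong to OMA1 cannot be told from the table. OMA1 (ENSG00000162600) lies on the minus strand of chromosome 1 from 58415384 to 58546802.

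PARL, the rhomboid protease that cuts PINK1 and PGAM5, had 42.5 and 44.1 CPM in shCon and 36.0 and 40.7 CPM in shUBXN1. Both knockdown libraries were lower, but the log2 fold change of -0.18 (standard error 0.0867, 95% interval -0.362 to 0.010) did not pass (edgeR adjusted p = 0.0988). PARL was called lower without shUBXN1 replicate 2 (-0.28) and after removal of the GC trend (-0.23). A protein-coding gene on the same strand, ENSG00000283765, shares 47.2% of the exon bases of PARL and held 15.4% to 21.4% of their summed counts, and that sum was whole in all 4 libraries. Summed, the pair had 1442 and 1288 counts in the shCon libraries, against 1092 and 1125 in the shUBXN1 libraries (likewise chosen after seeing the data). For the sum, the log2 fold change was -0.24 (standard error 0.0791, edgeR adjusted p = 0.0181), so the call for this locus depends on how the shared reads are assigned. PARL (ENSG00000175193) lies on the minus strand of chromosome 3 from 183829271 to 183884933.

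OPA1, the substrate of OMA1 and YME1L1, had 116 and 117 CPM in shCon and 95.1 and 103 CPM in shUBXN1. The groups did not overlap, and the log2 fold change was -0.24 (standard error 0.0738, edgeR adjusted p = 0.0129), which left 84.7% of the control level (means 117 ± 0.873 and 98.9 ± 5.41 CPM, SD, n = 2 each). The call was lost in 5 of 15 alternatives, among them removal of the GC trend (-0.18, edgeR adjusted p = 0.0803) and the fits without shCon replicate 1 or without shCon replicate 2 (-0.25 in both). OPA1 (ENSG00000198836) lies on the plus strand of chromosome 3 from 193593144 to 193697811, with 31 exons in the canonical transcript, and its 4 counts were whole numbers. The long and short OPA1 forms that the proteases produce are proteins, and the table does not resolve its splice forms either.

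**Figure D3:**
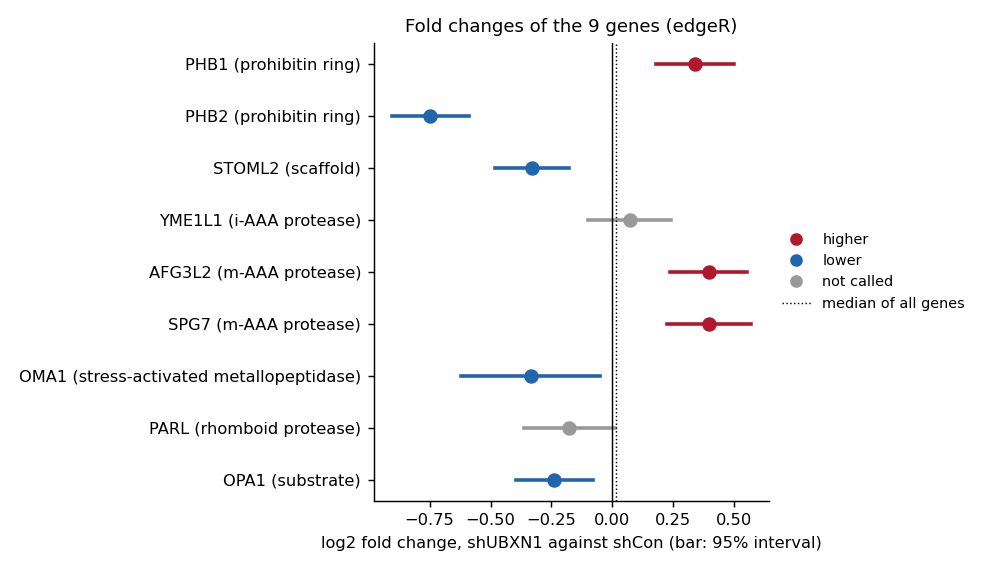
Log2 fold changes of the 9 genes, shUBXN1 against shCon, from edgeR's quasi-likelihood test with 95% intervals, and a dotted line at the median of all genes (0.016). PHB2 lies farthest from 0 at -0.75, PHB1, AFG3L2 and SPG7 lie between 0.34 and 0.40, and the intervals of YME1L1 and PARL cross 0.

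By length-corrected level, the 9 genes spanned from 277 TPM for PHB2 to 15.1 TPM for OMA1 in shCon. PHB2 was followed by PHB1 (211 TPM), STOML2 (182 TPM), AFG3L2 (97.5 TPM), SPG7 (67.7 TPM), YME1L1 (60.1 TPM), PARL (57.8 TPM) and OPA1 (36.4 TPM). No neighbours in that order overlapped between their 2 shCon libraries, although YME1L1 (58.4 and 61.7 TPM) and PARL (57.6 and 58.0 TPM) were close. In shUBXN1 the order was the same except that PHB1 (278 TPM) stood above PHB2 (172 TPM). OMA1 was at 0.227 and 0.276 times the level of YME1L1 in shCon and at 0.207 and 0.174 times in shUBXN1, a log2 difference of -0.40 against a pooled SD of 0.188.

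The protein-coding genes nearest to PHB1 in their centred log2(CPM + 1) values over the 4 libraries were SLC47A1, a transporter of organic cations, RHEB, the GTPase that activates mTORC1, and the casein kinase gene CSNK1G3. Their mean absolute differences from PHB1 were 0.00451, 0.00789 and 0.00974. Among 13510 genes, AFG3L2 ranked 189th by this measure, with 0.0328, and PHB2 ranked 11953rd, with 0.540. With 4 libraries this is a description only.

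To place the 9 genes beside their pathway, 7 related lists with 68 different genes were examined, of which 65 passed the filter. Of these, 10 (15.4%) were higher and 26 (40.0%) were lower in shUBXN1, with a median log2 fold change of -0.14. Among genes at least as abundant as OMA1, 27.8% were called higher and 39.1% lower, with a median log2 fold change of -0.077. Without shCon replicate 2, 6 genes of the lists were called higher, and 5 were once the GC trend was removed.

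Of 18 partners and substrates of the proteases, 10 (55.6%) were lower and 1 was higher, with a median log2 fold change of -0.25, beside 39.1% lower among genes at least as abundant as OMA1. Without shUBXN1 replicate 1, 2 were called higher. PRELID1, a carrier of phosphatidic acid that YME1L1 degrades, fell from 123 ± 12.1 CPM (SD, n = 2) to 70.9 ± 5.37 CPM (log2 fold change -0.80, edgeR adjusted p = 2.47e-06). HAX1, an anti-apoptotic protein of the intermembrane space, fell from 139 ± 6.89 to 96.5 ± 0.207 CPM (-0.53, edgeR adjusted p = 2.82e-05). CHCHD2, a small cristae protein, had a log2 fold change of -0.37 (edgeR adjusted p = 5.78e-04). The 1 rise was that of PINK1, the mitophagy kinase that PARL cleaves, at 33.0 and 33.0 CPM in shCon and 84.6 and 91.4 CPM in shUBXN1 (log2 fold change 1.41, edgeR adjusted p = 4.13e-09). DELE1, which OMA1 cuts to relay mitochondrial stress to the kinase EIF2AK1, fell from 28.0 ± 1.39 to 22.7 ± 1.24 CPM (SD, n = 2 each, log2 fold change -0.30, edgeR adjusted p = 0.0154).

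A list of EIF2AK1, ATF4 and ATF4-responsive genes was examined next, and the part of that relay in their levels was not tested. Of the 11 tested genes of this list, 6 (54.5%) were lower and 3 (27.3%) higher, with a median of -0.42. Among genes at least as abundant as OMA1, the shares were 39.1% lower and 27.8% higher. TRIB3, a pseudokinase induced by ATF4, had the smallest p of the list and fell from 161 ± 2.84 CPM (SD, n = 2) to 52.2 ± 3.55 CPM (log2 fold change -1.63, edgeR adjusted p = 1.06e-09). ASNS, asparagine synthetase, was at -1.14 (edgeR adjusted p = 4.15e-07) and GDF15, a stress cytokine, at -0.58 (edgeR adjusted p = 4.26e-05). DDIT4, ATF3 and PPP1R15A rose, with log2 fold changes of 0.61, 0.59 and 0.38 (edgeR adjusted p = 2.21e-05, 0.00178 and 0.00103). ATF4 itself fell (-0.42, edgeR adjusted p = 1.91e-04), and EIF2AK1 was at 0.11 and did not pass (edgeR adjusted p = 0.25).

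Genes of MICOS and the cristae junction were mostly not called, with a median of -0.070. Of 11, 3 (27.3%) were lower and 1 (9.09%) higher, beside 39.1% and 27.8% of genes at least as abundant as OMA1. The falls were those of DNAJC11 (log2 fold change -0.58), APOO (-0.82) and CHCHD3 (-0.22), and the rise was that of MTX1 (0.30). The call of MTX1 was lost without shCon replicate 2 and after removal of the GC trend, where 5 genes of the list were called lower. IMMT, which encodes the core subunit mitofilin, was at -0.18 and did not pass (edgeR adjusted p = 0.0626). Among 9 genes of cardiolipin synthesis and remodelling, 3 (33.3%) were lower and 1 (11.1%) higher, beside the same 39.1% and 27.8%. DNAJC19, a co-chaperone that binds prohibitins, fell from 24.9 ± 0.560 CPM (SD, n = 2) to 13.3 ± 0.582 CPM (log2 fold change -0.90, edgeR adjusted p = 5.96e-06), a change in the direction of PHB2 and not of PHB1. The synthesis genes PTPMT1 (-0.43) and CRLS1 (-0.35) fell and PGS1 (0.27) rose. The call of PGS1 was lost after removal of the GC trend and without shCon replicate 1, shCon replicate 2 or shUBXN1 replicate 1.

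The SPFH proteins outside mitochondria showed 2 rises and 2 falls among 6 tested genes (33.3% each). Genes at least as abundant as OMA1 were 27.8% higher and 39.1% lower by the same rule. FLOT2 (flotillin) and STOML1 rose with log2 fold changes of 0.55 and 0.39, and the endoplasmic reticulum proteins ERLIN1 and ERLIN2 fell with -0.38 and -0.19. Both counts went to 1 without shCon replicate 1, without shCon replicate 2, with DESeq2, with both fits to TPM and after removal of the GC trend. STOML3 had 0 counts in all 4 libraries and was not tested. Of 5 other proteases of the inner membrane and intermembrane space, the serine protease HTRA2 rose from 18.4 and 18.9 CPM to 42.8 and 44.2 CPM (log2 fold change 1.22, edgeR adjusted p = 5.32e-08), a larger change than that of any of the 5 proteases among the 9 genes. ATP23 fell (-0.66, edgeR adjusted p = 0.0210), but that call was lost with DESeq2, with total count scaling, without shCon replicate 2 and without shUBXN1 replicate 1. IMMP1L was at -0.65 and did not pass (edgeR adjusted p = 0.0506). In the outer membrane fusion list, MFN2 rose (0.25), MIGA2 fell (-0.27) and MFN1 was at -0.04 without passing, beside the fall of OPA1 at the inner membrane. Without shCon replicate 1 or without shCon replicate 2 neither MFN2 nor MIGA2 was called, and MFN2 was also lost after removal of the GC trend and MIGA2 in both fits to TPM.

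**Figure D4:**
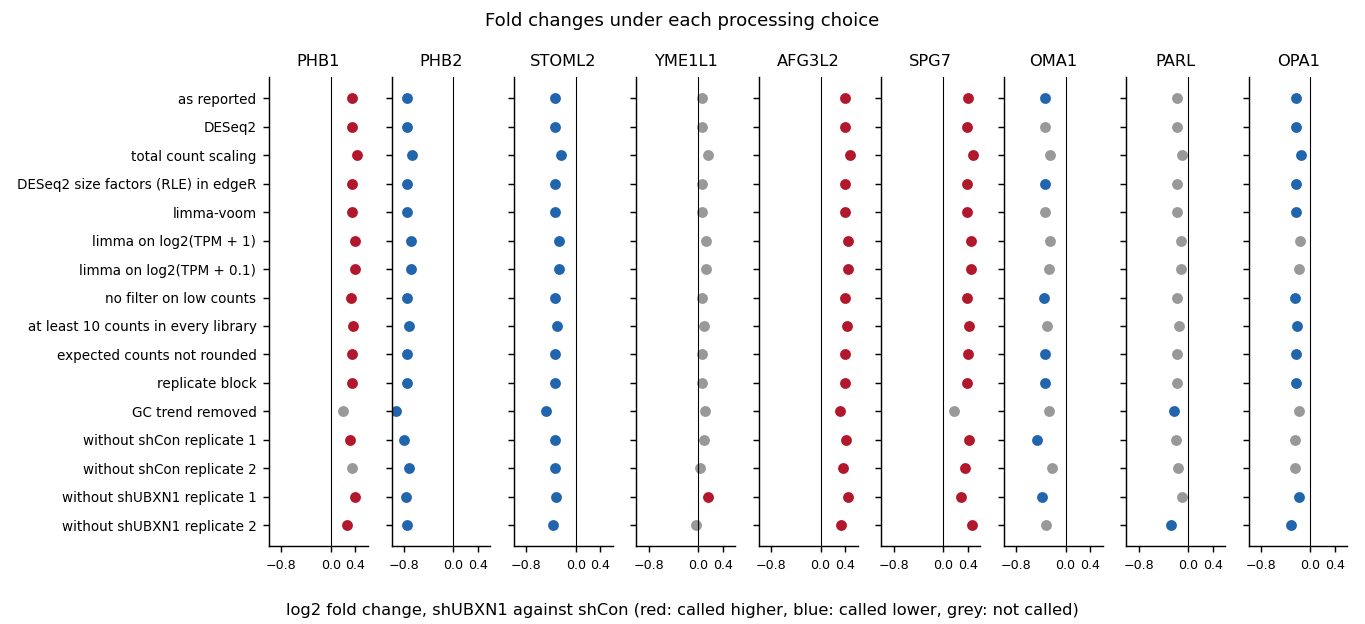
Log2 fold change of each of the 9 genes under the reported test and 15 alternatives, in red or blue where called higher or lower and in grey where not called. PHB2, STOML2 and AFG3L2 keep their colour in every row, whereas OMA1 is grey in 9 of the alternatives and PHB1 and SPG7 turn grey when the GC trend is removed. Canonical transcripts of these genes ranged in GC content from 37.7% (OMA1) to 58.3% (SPG7).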

How the data were processed

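RNA-seq of 4 MHCC97H libraries was analysed. Per the labels and the methods, reads were paired-end and aligned with HISAT2 (version 2.0.4 in the submitters' processing notes, which also name StringTie 1.3.0). The methods name GRCh38 and the notes GRCh37. Of the gene IDs, 99.72% had a symbol in the references used, and the positions given are from GENCODE 44 (GRCh38), not from the table. The authors deposited expected counts per gene, not normalized, with a gene length. The counting tool, annotation release and strand setting are not given in the sources used here.

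From these, expected counts were rounded, filtered with filterByExpr and TMM-scaled, and the groups were compared by the quasi-likelihood F test of edgeR 4.0.16 (glmQLFit, glmQLFTest, R 4.3.3), with no block and with Benjamini-Hochberg adjustment over all genes. The spread rested on 2 residual degrees of freedom per gene with sharing across genes, and the common biological coefficient of variation was 0.0711. TPM was computed from unrounded counts and the deposited lengths. Standard errors are the log2 fold change over the square root of F. The test was tested on simulated data for this comparison, on 16470 genes, where it recovered 47 of 69 genes changed 1.5-fold and 63 of 71 changed 2-fold. The simulation gave every gene the common dispersion and changed far fewer genes than were called here, so recovery in the data may differ. Of the 9 genes, only PHB2 changed by as much as 1.5-fold, the smallest size simulated. Replicate libraries differed by more than sampling noise (chi-square per degree of freedom 3.83 and 8.48).

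The 9 genes and the related lists were chosen with earlier results of these data known. Named in the text are all 9 genes, UBXN1, up to 3 rises and 3 falls with the smallest p in each list, the 3 genes nearest PHB1, and copies and overlapping genes of the 9. DELE1, ATF4, EIF2AK1, IMMT, IMMP1L, MFN1, KRT8 and the overlapping genes were named after their values were seen. Alternatives were DESeq2 1.42.0, limma 3.58.1 (voom, log2(TPM + 1), log2(TPM + 0.1)), other scalings, filters (at least 10 counts in every library), rounding and call rules, a replicate block, removal of GC trends and leaving out each library.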

Additional observations from a re-analysis of the deposited data

How the results depend on the processing

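PHB2, STOML2 and AFG3L2 kept their direction and call in each of 15 alternatives. Without each library's GC trend, PHB1 (0.19), SPG7 (0.18), OMA1 (-0.27) and OPA1 (-0.18) were not called, PARL was (-0.23), and 1 of the 9 genes was called higher. OMA1 was also not called with DESeq2 (-0.34), limma-voom (-0.33), total count scaling (-0.25), log2(TPM + 1) in limma (-0.26), log2(TPM + 0.1) in limma (-0.27), or at least 10 counts in every library (-0.31). OPA1 was not called with limma on log2(TPM + 1) (-0.18) or log2(TPM + 0.1) (-0.18), and under both 2 of the 9 genes were called lower. PARL was called with the counts of the overlapping gene added (-0.24). The causes were not tested. With 1 library left out at a time, where the lone library of a group is assumed to vary like the other group, log2 fold changes ran from 0.27 to 0.39 for PHB1, -0.037 to 0.16 for YME1L1, -0.46 to -0.23 for OMA1, -0.28 to -0.092 for PARL and -0.31 to -0.19 for OPA1. The fits called 2 to 4 of the 9 genes higher and 2 to 4 lower, and 6 to 11 genes of the related lists higher. Calls changed without shCon replicate 1 (OPA1), shCon replicate 2 (PHB1, OMA1, OPA1), shUBXN1 replicate 1 (YME1L1) and shUBXN1 replicate 2 (OMA1, PARL). When calls required a 2-fold change with an unadjusted p under 0.05, 0 of the 9 genes were called in either direction (edgeR), against 3 and 4 at the adjusted p, with 1997 genes higher and 1027 lower overall and 2 higher and 3 lower in the related lists. The related lists had 5 genes higher without the GC trend. DESeq2 called 3 of the 9 genes higher and 3 lower. A replicate block changed no call among the 9 genes and gave 5000 genes higher and 5023 lower. The deviations of same-numbered libraries correlated across genes with r = 0.0393. With 2 libraries per group, this cannot tell whether same-numbered libraries shared a culture. OMA1 had the lowest counts of the 9 genes, at 253 to 357 a library, and the part of depth in its lost calls was not tested.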
